A study of Homo sapiens with 16 samples.

Results

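MYC and the genes of the MAX network were followed through 16 RNA sequencing libraries of RWPE1, an established line of human prostate epithelium. The members are 10 genes, found by their symbols among the 20166 symbols of the deposited table: MYC and MYCN, their partner MAX, the repressors MXD1, MXD3, MXD4, MXI1, MNT and MGA, and MLX. All 10 are on 1 row each of the table. The series concerns the control of prostate differentiation. The groups are RWPE1 cells engineered with a wild-type over-expression construct (6 libraries, replicates 13 to 18), cells labelled as carrying its T164A mutant (4 libraries, replicates 91 to 94) and cells with the empty vector, an altered pTRIPZ (6 libraries, replicates 1 to 6). The labels name no other treatment, time or dose and do not say whether a line is 1 clone or a pool. Separate cultures are not mentioned either, and the p-values therefore reflect library-to-library scatter that may be purely technical.

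MYC and MYCN are transcription factors of the basic helix-loop-helix leucine zipper kind that bind DNA as dimers with MAX, mostly at the E-box letters CACGTG, and raise the expression of genes for ribosome building, metabolism and growth. The MXD proteins, MNT and MGA also dimerise with MAX and occupy the same letters, but act as repressors, the MXD proteins and MNT by recruiting the SIN3 co-repressor. MLX, a relative of MAX, pairs with the glucose-sensing Mondo proteins and with some MXD proteins and MNT. In epithelia MYC is known as a gene of dividing cells and MXD1 as a gene induced when cells leave the cycle and differentiate.

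The 3 groups also differed in markers of cell type. Estimated depth was 12300000 to 19200000 reads per library. All 12 basal prostate markers were above the detection floor of 3 reads in every library. The summed level of the basal markers, as the log2 of their summed linear values, was 17.26 to 17.72 in wild type, 16.84 to 17.05 in the libraries labelled T164A and 17.97 to 18.19 in vector. The 12 luminal prostate markers summed to 15.71 to 16.77 in wild type, 10.59 to 10.67 in the libraries labelled T164A and 8.76 to 9.01 in vector, where HPN and TRPM8 were among the markers below the floor in every library. Of these 12, all were higher in wild type than in vector (limma), beside 21% of all symbols. The libraries labelled T164A had 5 higher and 3 lower than vector (limma), beside 37.1% and 27.2% of all symbols. Among those 3, KLK3 had both group means below the floor, and TMPRSS2 had its mean in the libraries labelled T164A below it. The 12 squamous differentiation markers summed to 15.47 to 15.95 in wild type, 9.75 to 9.88 in the libraries labelled T164A and 16.25 to 16.36 in vector. The 12 neuronal markers summed to 9.09 to 9.29 in wild type, 13.02 to 13.14 in the libraries labelled T164A and 9.09 to 9.57 in vector. In the 10 fibroblast and mesenchymal markers the sums were 12.33 to 12.57 in wild type, 14.01 to 14.19 in the libraries labelled T164A and 12.30 to 12.64 in vector. Such sums weigh the most abundant markers most. Against vector, all 12 basal markers were lower in wild type, beside 24.5% of all symbols. In the libraries labelled T164A, 9 basal markers were lower and 1 higher than vector, and 2 mesenchymal markers were lower and 6 higher, beside 27.2% and 37.1%. Of the 2 lower mesenchymal markers, 1 had both group means below the floor. The part of these cell type differences in the results on the network was not tested, and fewer cells of a type cannot be told apart from less RNA per cell in such libraries. Wild-type replicate 14 and T164A replicate 93 stand apart from the others of their groups. The vector libraries form close sets, replicates 1 and 2 in the first and replicates 3, 4 and 6 in the second, with replicate 5 alone.

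Most members were called in each comparison, at a share close to that of other genes of their level. In wild type against vector, 3 members were higher, 4 were lower and 3 were not called at an adjusted p below 0.05 (limma), where 45.5% of all 20166 symbols were called. In the libraries labelled T164A against vector, 3 were higher, 5 lower and 2 not called, against 64.4% called among all symbols. Wild type against the libraries labelled T164A gave 5 higher, 2 lower and 3 not called, against 61.8%. All members but MYCN had a mean of at least 9, and among the 6705 symbols at that level the called shares were 67.2%, 84.1% and 80.3% in these 3 comparisons. The median change of the members was -0.05 in wild type and -0.06 in the libraries labelled T164A, beside -0.05 in wild type and 0.11 in the libraries labelled T164A over all symbols. Wild type minus T164A had a median of 0.11 over the members and -0.08 over all symbols. The 12977 calls in the libraries labelled T164A against vector split into 7487 higher and 5490 lower, and under quantile normalization the split was 6201 and 6940. The members differed among themselves in size and direction. MXD1 (lower) and MXD4 (higher) had the largest called differences of the 10 in wild type, and MYCN, MXD1 and MXD4 had them in the libraries labelled T164A. Single values below are deposited log2 values, and each difference is on that log2 scale with its standard error from limma (SE).

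**Figure D1:**
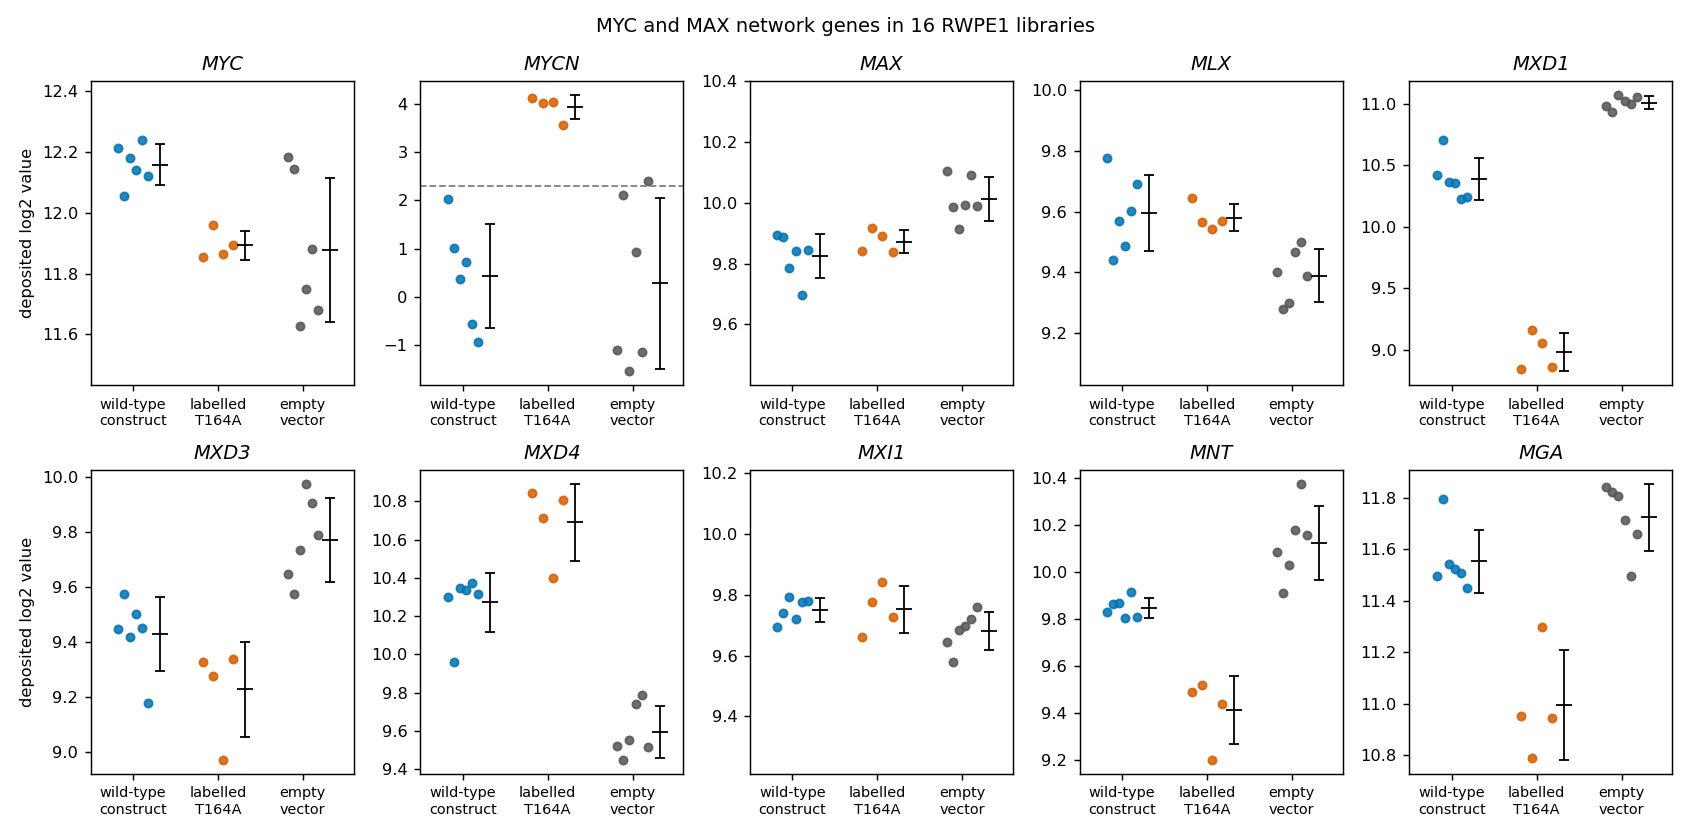
Deposited log2 values (vertical axes, each with its own range) of the 10 genes in every library of the 3 groups; points are libraries, and the bar beside them is the mean ± SD (n = 6 wild type, 4 labelled T164A, 6 vector). The dashed line in the MYCN panel is the floor of 3 reads, at 2.30. MXD1 lies in 3 separate levels, with the vector libraries highest at 10.93 to 11.07.

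MYC, the activator the network is named for, was slightly higher in wild type. Its lowest, median and highest values were 12.05, 12.16 and 12.24 in the 6 wild-type libraries, from 3865 to 5560 reads. The 4 libraries labelled T164A held 11.85, 11.96, 11.86 and 11.89, and the 6 vector libraries 11.63, 11.82 and 12.18 as lowest, median and highest. The wild-type and vector libraries overlapped, while every wild-type library lay above every library labelled T164A.

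MYC rose by 0.28 (SE 0.08, limma adjusted p = 0.00364) in wild type against vector, a fold of 1.21. That difference was not spread evenly over the vector libraries. Vector replicates 1 and 2 were at 12.18 and 12.14, inside the wild-type range, while replicates 3, 4 and 6 were at 11.63, 11.75 and 11.68 and replicate 5 at 11.88. Reducing every close set to its mean leaves 2 values in wild type, 2 in the libraries labelled T164A and 3 in vector. The difference was then 0.21 (limma adjusted p = 0.318), and the call was also lost under a minimum fold of 1.2. Against the libraries labelled T164A, MYC was higher in wild type by 0.27 (SE 0.09, limma adjusted p = 0.00878), a call lost under the same 2 alternatives (adjusted p = 0.193 with sets averaged). Between the libraries labelled T164A and vector the difference was 0.02 (SE 0.09, limma adjusted p = 0.896), and its sign changed between alternatives.

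MYCN, the family member known from neural and embryonic tissue, was above the floor in all 4 libraries labelled T164A and in 1 of the other 12. It was at 4.11, 4.01, 4.04 and 3.57 in those 4 libraries, or 10.3 to 16.3 estimated reads. The wild-type libraries ran from -0.94 over a median of 0.55 to 2.02, all below their floors. In vector the lowest, median and highest values were -1.54, -0.09 and 2.41, and only replicate 6 was above its floor.

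With the other groups set at the mean floor of 2.30, the mean of MYCN in the libraries labelled T164A was at least 1.63 log2 units higher than in vector and than in wild type. The tests used the deposited values without that floor and do not test this bound. They gave limma adjusted p = 7.34e-05 against vector and 0.000135 against wild type. No fold is given between wild type and vector, where MYCN was not detectable as a group mean at this depth (limma adjusted p = 0.88). Values this low carry extra scatter in the deposited table, so they are not exact counts. Of the 12 neuronal markers, 9 were also higher in these libraries against vector and 1 was lower, beside 37.1% and 27.2% of all symbols. ELAVL4, 1 of the 9, had both group means below the floor. The part of the neuronal markers in the MYCN result was not tested. MYCL, the remaining MYC family gene, was not analysed here.

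MAX, the shared partner of the MYC and MXD proteins, was a little lower in wild type and in the libraries labelled T164A. It ran from 9.70 over a median of 9.84 to 9.90 in wild type, was at 9.84, 9.92, 9.89 and 9.84 in the libraries labelled T164A, and ran from 9.91 over 9.99 to 10.10 in vector. All wild-type libraries lay below all vector libraries, and T164A replicate 92 overlapped the vector by a small margin. MAX fell by 0.19 (SE 0.05, limma adjusted p = 0.0037) in wild type and by 0.14 (SE 0.06, limma adjusted p = 0.0336) in the libraries labelled T164A. Neither call held with sets of close libraries averaged (-0.18, adjusted p = 0.289, in wild type and -0.16, adjusted p = 0.254, in the libraries labelled T164A) or under a minimum fold of 1.2. The second call was also lost without vector replicate 1 (-0.12, adjusted p = 0.074), vector replicate 5 (-0.13, 0.0691), T164A replicate 91 (-0.13, 0.0826) or T164A replicate 94 (-0.13, 0.0836). Wild type and the libraries labelled T164A differed in MAX by -0.05 (SE 0.06, limma adjusted p = 0.521).

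MXD1, the repressor known to rise as epithelial cells differentiate, lay at a separate level in each of the 3 groups. Its lowest, median and highest values were 10.23, 10.36 and 10.70 in wild type. The libraries labelled T164A held 8.84, 9.16, 9.06 and 8.86, and the vector libraries 10.93, 11.01 and 11.07. The 3 groups did not overlap anywhere, and the highest wild-type value was that of replicate 14, the library of that group with the lowest luminal sum (15.71) and the highest basal sum (17.72).

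MXD1 fell by 0.62 (SE 0.07, limma adjusted p = 5.21e-08) in wild type, which is 1.54-fold lower than vector. In the libraries labelled T164A it fell by 2.03 (SE 0.08, limma adjusted p = 1.12e-17), which is 4.08-fold lower. The direct difference, wild type minus T164A, was 1.41 (SE 0.08, limma adjusted p = 2.51e-14). Every alternative run kept the 3 calls and their directions, sets of close libraries averaged included. The basal and squamous marker sums fell in the same order, wild type below vector and the libraries labelled T164A below both. Of the 12 basal markers, 9 were higher and 3 lower in wild type than in the libraries labelled T164A, beside 26.7% and 35.1% of all symbols. The part of these markers in the fall of MXD1 was not tested.

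MXD4, another repressor of the same kind, moved the opposite way. It ran from 9.96 over a median of 10.33 to 10.37 in wild type, was at 10.84, 10.71, 10.40 and 10.81 in the libraries labelled T164A, and ran from 9.45 over 9.54 to 9.79 in vector. Here too the 3 groups did not overlap, although T164A replicate 93, at 10.40, lay only just above the highest wild-type library, and wild-type replicate 14 was the closest of its group to the vector. MXD4 rose by 0.68 (SE 0.08, limma adjusted p = 1.09e-07) in wild type and by 1.09 (SE 0.09, limma adjusted p = 3.02e-11) in the libraries labelled T164A, folds of 1.599 and 2.14. Wild type minus T164A was -0.42 (SE 0.09, limma adjusted p = 0.000193), a call lost only under a minimum fold of 1.2 (adjusted p = 0.0943). The calls of both groups against vector held under every alternative run.

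The promoters of MXD4 and MXD1, which of the 9 members above the floor had the largest called rise and fall against vector, are shown for the letters the network binds. RefSeq windows of 300 bases (250 before the start of the gene and 50 after it, build GRCh38.p14) were at hand for 9 of the 10 members, and CACGTG in capitals marks each E-box match; the motif is its own reverse complement, so both strands are covered.
MXD4 promoter, chr4:2262060-2262359, minus strand: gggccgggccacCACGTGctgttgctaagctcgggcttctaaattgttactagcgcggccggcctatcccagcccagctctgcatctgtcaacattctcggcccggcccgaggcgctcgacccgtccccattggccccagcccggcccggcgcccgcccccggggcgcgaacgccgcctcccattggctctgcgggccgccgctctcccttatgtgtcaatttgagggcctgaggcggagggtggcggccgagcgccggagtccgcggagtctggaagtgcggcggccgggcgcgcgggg
MXD1 promoter, chr2:69914859-69915158, plus strand: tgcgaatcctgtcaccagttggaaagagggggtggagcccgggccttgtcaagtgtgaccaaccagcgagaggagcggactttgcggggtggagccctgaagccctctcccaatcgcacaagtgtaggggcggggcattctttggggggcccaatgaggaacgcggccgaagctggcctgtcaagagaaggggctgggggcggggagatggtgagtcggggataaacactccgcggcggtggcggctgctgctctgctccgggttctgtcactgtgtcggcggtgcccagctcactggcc
The MXD4 window holds 1 match, whose first base lies 238 bases before the start, and the MXD1 window holds 0. Their GC contents are 72.3% and 65%. MNT and MLX are the other members with a match, shown with 12 bases on either side.
MNT, chr17:2401236-2401265, minus strand: ccctgcccgggcCACGTGtgcgcgcgccgg
MLX, chr17:42567038-42567067, plus strand: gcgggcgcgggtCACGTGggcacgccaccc
In all, 3 of 9 members with a window hold the letters, against 8.77% of 27305 genes with a window and 13.7% of 5313 such genes with a mean of at least 9. A match is a description of these windows only, and the 3 genes did not move alike, since MXD4 and MLX rose in both groups and MNT fell in both.

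MXD3, a repressor known from dividing cells in S phase, was lower in both groups. It ran from 9.18 over 9.45 to 9.58 in wild type, was at 9.33, 9.28, 8.97 and 9.34 in the libraries labelled T164A, and ran from 9.58 over 9.76 to 9.98 in vector. Wild type and vector touched at a single pair of libraries, and the libraries labelled T164A lay below all vector libraries. MXD3 fell by 0.34 (SE 0.08, limma adjusted p = 0.000692) in wild type and by 0.54 (SE 0.09, limma adjusted p = 4.46e-06) in the libraries labelled T164A. The first of these calls was lost with sets of close libraries averaged (-0.30, adjusted p = 0.137) and under a minimum fold of 1.2.

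Wild type exceeded the libraries labelled T164A in MXD3 by 0.20 (SE 0.09, limma adjusted p = 0.0489), just past the threshold. That call was lost without T164A replicate 93 (0.12, adjusted p = 0.25) or 92 (0.22, 0.0589), without wild-type replicate 13 (0.20, 0.0724), 14 (0.17, 0.0984), 15 (0.20, 0.0639), 16 (0.19, 0.0886) or 17 (0.20, 0.0731), and without vector replicate 3 (0.20, 0.0547) or 6 (0.20, 0.0566). It was also lost without a variance trend (adjusted p = 0.0947), with array weights (0.0649), fitting only the groups compared (0.054), with sets averaged (a difference of 0.34, adjusted p = 0.0559), without the 2 libraries that stand apart (a difference of 0.09, adjusted p = 0.392) and under a minimum fold of 1.2 (0.932).

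MXI1, also called MXD2, was not called in any of the 3 comparisons. Its values ran from 9.69 over a median of 9.76 to 9.79 in wild type, were 9.66, 9.78, 9.84 and 9.73 in the libraries labelled T164A, and ran from 9.58 over 9.69 to 9.76 in vector. All 3 groups overlapped. The differences were 0.07 (SE 0.05, limma adjusted p = 0.294) for wild type and 0.07 (SE 0.06, limma adjusted p = 0.293) for the libraries labelled T164A against vector. Among the 4 genes of the MXD family, then, MXD1 and MXD3 were lower, MXD4 was higher and MXI1 was not called in both groups against the same vector libraries, and under quantile normalization the MXI1 difference of the libraries labelled T164A changed sign (-0.07).

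MNT, a repressor present in dividing and resting cells alike, was lower in both groups. It ran from 9.80 over 9.84 to 9.92 in wild type, was at 9.49, 9.52, 9.20 and 9.44 in the libraries labelled T164A, and ran from 9.91 over 10.12 to 10.38 in vector. The libraries labelled T164A formed a separate low level, while wild type reached the lowest vector library. MNT fell by 0.27 (SE 0.07, limma adjusted p = 0.00143) in wild type, a call lost with sets of close libraries averaged (-0.31, adjusted p = 0.106) and under a minimum fold of 1.2. In the libraries labelled T164A it fell by 0.71 (SE 0.08, limma adjusted p = 4.63e-09). The direct difference, wild type minus T164A, was 0.44 (SE 0.08, limma adjusted p = 1.38e-05), and the last 2 calls held under every alternative run.

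MGA, a very large repressor that joins a MAX-binding domain to a T-box, was lower in the libraries labelled T164A. These held 10.95, 10.79, 11.30 and 10.94, against 11.45, 11.52 and 11.80 as lowest, median and highest in wild type and 11.496, 11.76 and 11.84 in vector. They did not overlap either group. Wild type and vector overlapped through wild-type replicate 14, at 11.80, and vector replicate 5, at 11.496. MGA fell by 0.73 (SE 0.08, limma adjusted p = 2.24e-08) in the libraries labelled T164A against vector, 1.66-fold lower, and wild type exceeded them by 0.56 (SE 0.08, limma adjusted p = 2.05e-06). In wild type against vector the difference was -0.17 (SE 0.08, limma adjusted p = 0.0679). It passed the threshold without wild-type replicate 14 (-0.22, adjusted p = 0.0137), vector replicate 5 (-0.22, 0.0198) or T164A replicate 93 (-0.17, 0.024). The same held without both libraries that stand apart (-0.22, 0.0013), with array weights (-0.19, 0.00725) and when only the groups compared were fitted (-0.17, 0.0313).

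MLX was higher in both groups by a small amount. It ran from 9.44 over 9.59 to 9.78 in wild type, was at 9.64, 9.57, 9.54 and 9.57 in the libraries labelled T164A, and ran from 9.28 over 9.39 to 9.50 in vector. Wild type overlapped the vector and the libraries labelled T164A lay just above it. MLX rose by 0.205 (SE 0.06, limma adjusted p = 0.00713) in wild type and by 0.19 (SE 0.07, limma adjusted p = 0.0165) in the libraries labelled T164A. With sets of close libraries averaged the difference was 0.12 (adjusted p = 0.54) in wild type and 0.16 (adjusted p = 0.278) in the libraries labelled T164A, and neither call held under a minimum fold of 1.2. The second call was also lost without T164A replicate 91 (0.17, adjusted p = 0.0564) and under quantile normalization (0.03, adjusted p = 0.74), a scaling that shifted the median gene (mean of at least 6) by -0.17 in this comparison. Wild type minus T164A was 0.01 (SE 0.07, limma adjusted p = 0.878), and 0.16 (adjusted p = 0.0431) under quantile normalization, which moved that median by 0.14.

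**Figure D2:**
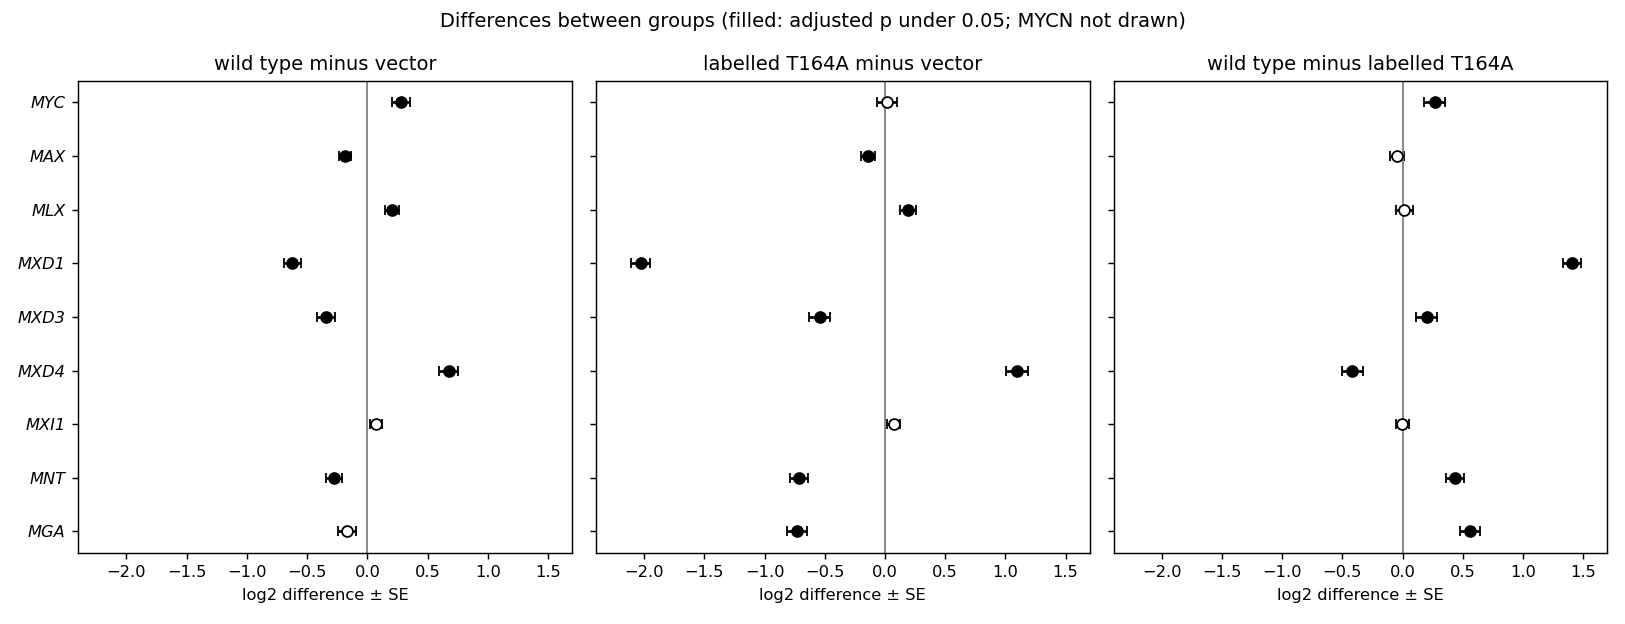
Differences between groups in log2 units ± SE (horizontal axes) for 9 members in the 3 comparisons; filled points passed an adjusted p of 0.05 (limma) and open points did not. MXD1 lies at -2.03 and MXD4 at 1.09 in the libraries labelled T164A against vector. MYCN is left out because 2 of its group means lie below the floor.

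Differences between members within a library do not depend on how libraries were scaled, although their absolute value depends on transcript length and only its change between groups is read here. MXD4 minus MXD1 was -0.74, -0.02 and 0.15 as lowest, median and highest in wild type, 1.9998, 1.55, 1.34 and 1.94 in the libraries labelled T164A, and -1.53, -1.47 and -1.21 in vector. The 3 groups were fully apart on this measure. That follows from MXD4 and MXD1 each being apart in opposite order, and is not further support. MYC minus MXD1 averaged 1.77 ± 0.22 in wild type (SD, n = 6), 2.91 ± 0.13 in the libraries labelled T164A (n = 4) and 0.87 ± 0.29 in vector (n = 6), again with no overlap. MYC minus MNT averaged 2.31 ± 0.06 in wild type, 2.48 ± 0.13 in the libraries labelled T164A and 1.76 ± 0.32 in vector. On that last pair, vector replicates 1 and 2, at 2.10 and 2.23, stood well above the other vector libraries at 1.51 to 1.598, and replicate 2 lay inside the wild-type range of 2.19 to 2.39. These 3 pairs, of 5 computed, were chosen after the members' values were seen and carry no test.

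**Figure D3:**
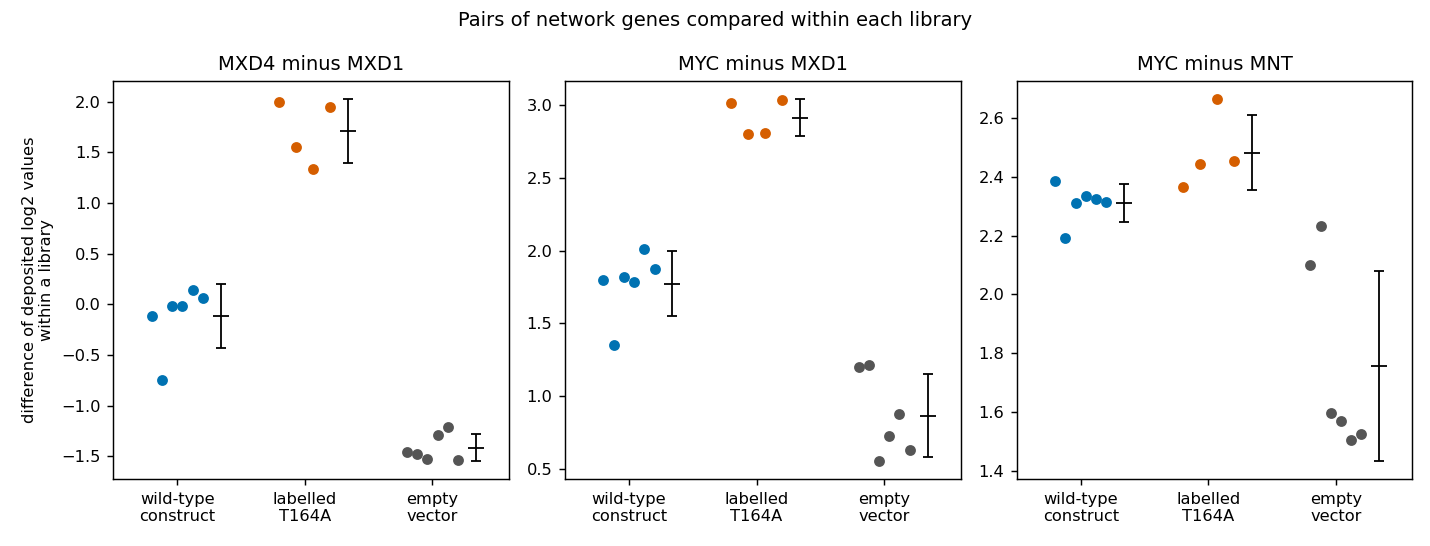
Difference of 2 genes' deposited log2 values within each library (vertical axes) in the 3 groups; points are libraries and bars are mean ± SD (n = 6, 4 and 6). MXD4 minus MXD1 runs from -1.53 in vector to 1.9998 in the libraries labelled T164A, with wild type between them.

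The genes whose profile over the 16 libraries lay closest to a member were found by the root mean square difference of values centred on their own mean. Candidates were 9108 symbols with a mean of at least 6, and the medians given are over them. A filter on the form of symbols left out some named genes, such as TXNIP and those of the ZNF and FAM families. Among the candidates the closest to MXD1 was ARRDC4, an arrestin-domain gene known as a target of MLX with MondoA. It lay at a distance of 0.08 log2 units, where the median gene lay at 0.90. DSC3, a desmosomal cadherin of basal epithelium, and TMEM40 followed, each at 0.09. ARRDC4 averaged 11.98 in wild type, 10.66 in the libraries labelled T164A and 12.58 in vector, and DSC3 averaged 12.81, 11.40 and 13.52 in the same order. For MYC the closest were TRAF4 (0.11), an adaptor of TNF receptor signalling, VGLL4 (0.12), a TEAD cofactor, TMEM5 (0.12) and PPP1R10 (0.12), a regulatory subunit of protein phosphatase, where the median gene lay at 0.40. For MYCN, near the floor, distances were larger: 3 of the 4 closest genes were CACNA2D1, a calcium channel subunit, SLC47A1, a transporter, and AHRR, a repressor of the aryl hydrocarbon receptor, at 1.10 to 1.11, against a median of 1.90. The remaining gene of the 4 is not named here and belongs to the list of neuronal markers. These distances describe likeness over libraries that share groups and depth, and carry no test.

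**Figure D4:**
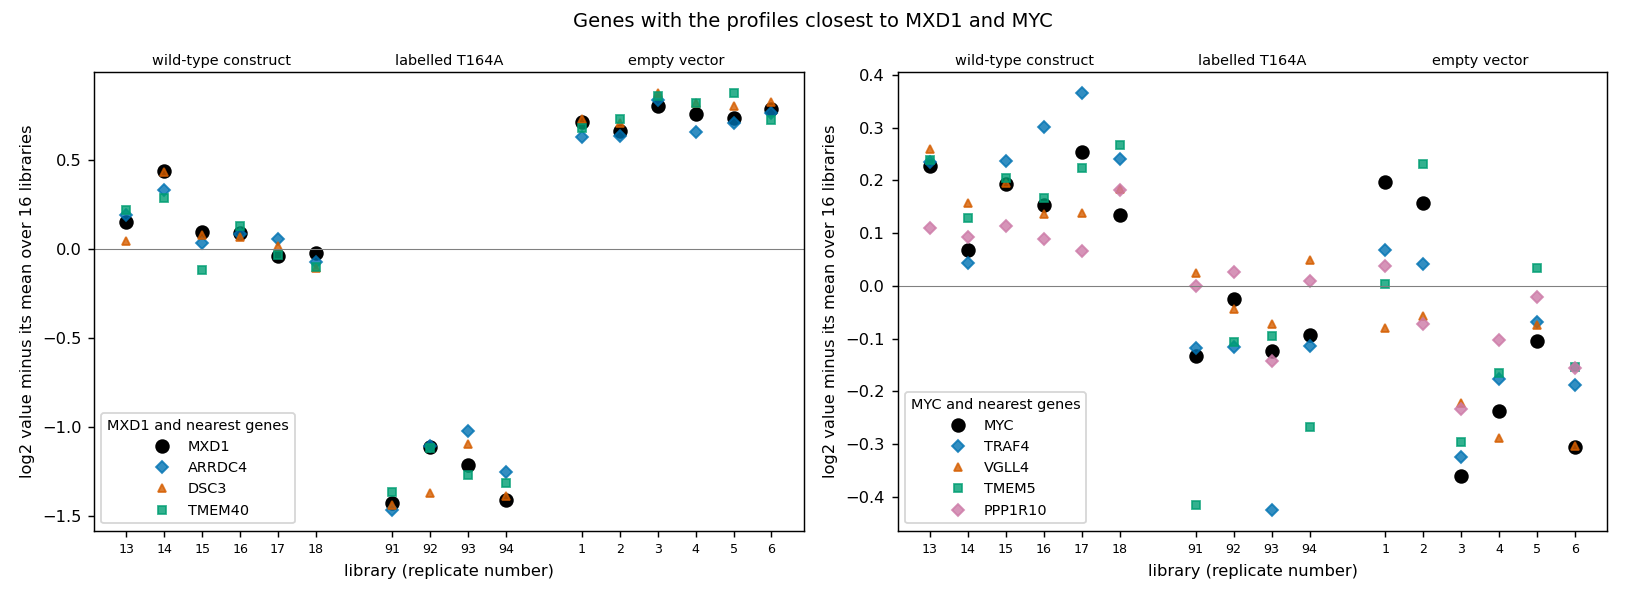
Values centred on each gene's mean over 16 libraries (vertical axes, log2 units) by library (horizontal axis, replicate numbers grouped as wild type, labelled T164A and vector), for MXD1 (left) and MYC (right) in black with their closest genes. ARRDC4 lies within 0.08 of MXD1 on average (root mean square), and MYC is higher in vector replicates 1 and 2 than in the other vector libraries.

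On the Mondo side of the network, MLXIP (MondoA), the glucose-sensing partner of MLX, fell in wild type by 0.25 (SE 0.06, limma adjusted p = 0.000511) and differed by -0.05 in the libraries labelled T164A (SE 0.06, limma adjusted p = 0.532). MLXIPL (ChREBP), its relative of liver and fat, rose by 1.23 in the libraries labelled T164A (SE 0.11, limma adjusted p = 1.21e-10) and differed by 0.16 in wild type (SE 0.10, limma adjusted p = 0.179). Of 5 known targets of MLX with MondoA, 3 fell and 0 rose in wild type, with a median of -0.27, beside 24.5% lower and 21% higher among all symbols and 43.2% lower and 24.1% higher among those with a mean of at least 9, the level of these targets.

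The same 3 targets fell further in the libraries labelled T164A. TXNIP, the thioredoxin-interacting protein that limits glucose uptake, was at 14.45, 14.49 and 14.63 as lowest, median and highest in wild type, 12.81, 12.91 and 13.02 in the libraries labelled T164A and 14.71, 14.78 and 14.84 in vector. It fell by 0.27 (SE 0.06) in wild type and by 1.87 (SE 0.06) in the libraries labelled T164A (limma adjusted p = 0.000245 and 5.61e-19). ARRDC4 fell by 0.60 (SE 0.07) in wild type and fell by 1.91 (SE 0.08) in the libraries labelled T164A. ARRDC3, of the same arrestin family, fell by 0.42 (SE 0.07) in wild type and fell by 2.51 (SE 0.08) in the libraries labelled T164A, while the glycolytic HK2 rose by 0.59 (SE 0.05) in the libraries labelled T164A (limma adjusted p = 4.15e-10). In that comparison 27.2% of all symbols were lower and 37.1% higher, and at a mean of at least 9 the shares were 39.9% and 44.3%. In wild type the count of lower targets was 1 with sets of close libraries averaged and 1 under a minimum fold of 1.2. Of the 5 targets, 3 carry the E-box letters in their promoter windows, and TXNIP and ARRDC3 do not. ARRDC4 and HK2, 2 of the carriers, are shown as examples of the sequence that MLX and MAX dimers share.
ARRDC4, chr15:97960481-97960510, plus strand: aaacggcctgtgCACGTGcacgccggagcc
HK2 (the first of 2 matches), chr2:74834964-74834993, plus strand: gattgctgcgccCACGTGggagggagcccc
These 2 genes went opposite ways in the libraries labelled T164A.

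Genes that MYC is known to activate were mostly higher in the libraries labelled T164A, where MYC itself differed from vector by 0.02. Of 20 such genes of metabolism and growth, 18 rose and 1 fell there, with a median of 1.17 beside 0.11 over all symbols, of which 37.1% were higher and 27.2% lower (44.3% and 39.9% at a mean of at least 9). CDC25A, the phosphatase that switches on cyclin-dependent kinases, rose by 3.16 (SE 0.08), the prohibitin gene PHB by 2.57 (SE 0.07) and the translation helicase EIF4A1 by 1.62 (SE 0.05), with limma adjusted p = 6.97e-21, 3.4e-20 and 5.35e-19. TFRC, the transferrin receptor, was the 1 that fell, by 0.89. In wild type 13 of the 20 rose and 4 fell, with a median of 0.29 beside -0.05 over all symbols, of which 21% were higher and 24.5% lower (24.1% and 43.2% at a mean of at least 9). ODC1, the rate-limiting enzyme of polyamine synthesis, rose by 1.36 (SE 0.09, limma adjusted p = 8.19e-12), with LDHA up by 0.76 (SE 0.06) and HSPE1 by 0.73 (SE 0.07). With sets of close libraries averaged 6 rose and 1 fell in wild type, and under a minimum fold of 1.2, 7 and 2.

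Of 20 nucleolar and ribosome biogenesis genes, 14 rose and 3 fell in the libraries labelled T164A, with a median of 0.49, beside 37.1% higher and 27.2% lower among all symbols (44.3% and 39.9% at a mean of at least 9). FBL, the fibrillarin that methylates ribosomal RNA, rose by 2.23 (SE 0.09), PES1 by 1.89 (SE 0.09) and NPM1, nucleophosmin, by 1.08 (SE 0.06), with limma adjusted p = 1.01e-17, 3.71e-16 and 2.1e-14. In wild type the list split, with 6 higher and 8 lower and a median of 0.02, beside 21% higher and 24.5% lower (24.1% and 43.2% at a mean of at least 9). GNL3 (by 0.65, SE 0.06), RRP9 (by 0.75, SE 0.08) and PES1 (by 0.68, SE 0.08) rose. Lower calls in wild type numbered 0 with sets of close libraries averaged or under a minimum fold of 1.2, 4 under quantile normalization, 4 without vector replicate 1 or 2, and 5 without vector replicate 4 or 5 or wild-type replicate 18. Wild type was lower than the libraries labelled T164A in 12 nucleolar genes and higher in 3, and lower in 18 growth genes and higher in 1 (the 3 were 1 without T164A replicate 92 or 93), beside 35.1% lower and 26.7% higher among all symbols. Of 16 cell cycle genes, 15 rose and 1 fell in the libraries labelled T164A, the direction of both lists there. In wild type 2 rose and 10 fell (6 lower under quantile normalization, 1 with sets averaged), with a median of -0.18, opposite in sign to that of the growth genes. The part of the cell cycle in the counts was not tested.

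E-box sites of growth genes that rose in both groups are shown as examples. ODC1 holds a pair, and the HSPD1 and HSPE1 genes, which lie head to head, share 1 site.
ODC1, chr2:10448024-10448053, minus strand: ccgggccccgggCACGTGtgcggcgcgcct
ODC1, chr2:10447990-10448019, minus strand: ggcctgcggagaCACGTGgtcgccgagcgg
HSPD1 and HSPE1, chr2:197500345-197500374, plus strand: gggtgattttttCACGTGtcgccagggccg
HSPD1 and HSPE1 rose together, HSPD1 by 0.93 (SE 0.06) and HSPE1 by 1.34 (SE 0.07) in the libraries labelled T164A, and HSPD1 by 0.27 (SE 0.05) and HSPE1 by 0.73 (SE 0.07) in wild type. Windows were at hand for 15 of 20 genes of each list, a lower coverage than the 9 of 10 members, and no share is given for them.

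**Figure D5:**
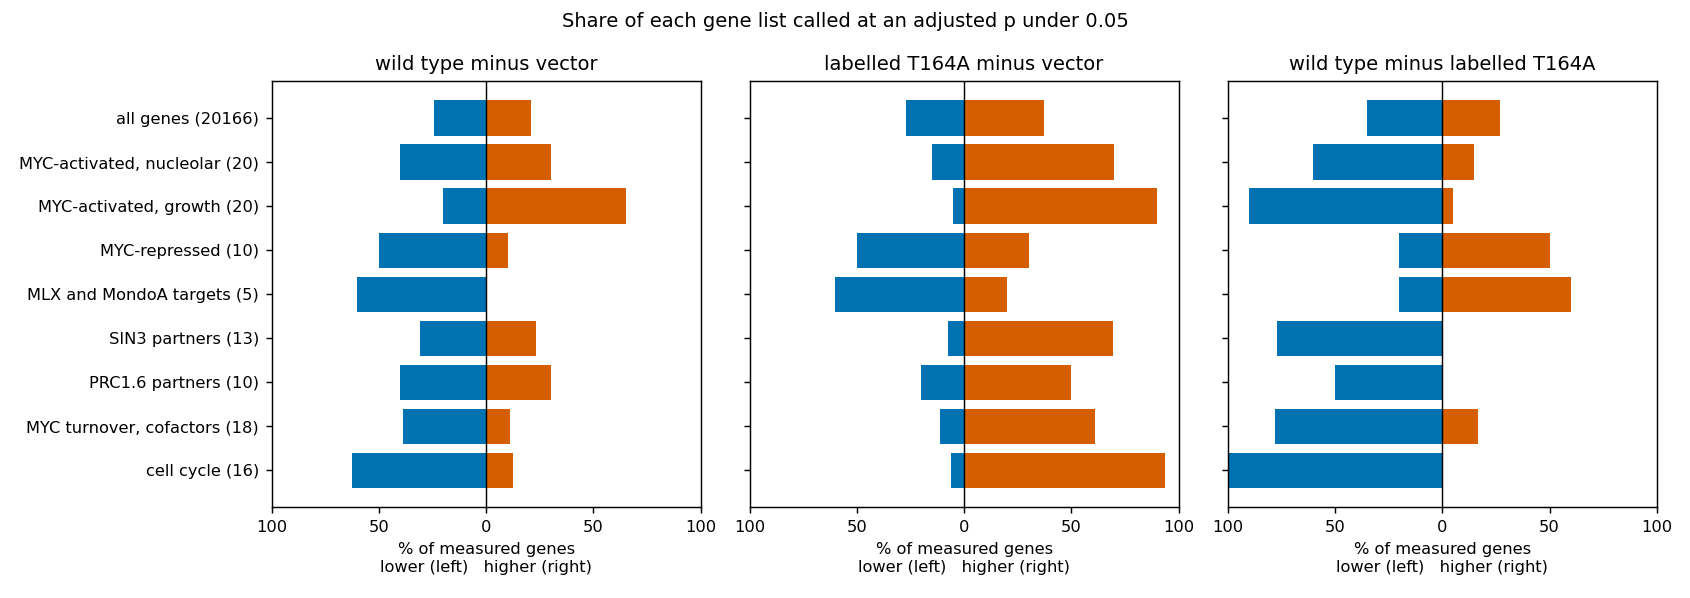
Share of the measured genes of each list called higher (right of 0) or lower (left of 0) at an adjusted p below 0.05 (limma), in percent, in the 3 comparisons; the number of measured genes is in parentheses and the top bar is all 20166 symbols. The MYC-activated growth genes reach 18 of 20 higher in the libraries labelled T164A against vector.

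Of 10 genes that MYC is known to repress, 5 fell and 1 rose in wild type, and 5 fell and 3 rose in the libraries labelled T164A (2 rose in wild type without vector replicate 4). The shares lower and higher were 24.5% and 21% among all symbols in wild type and 27.2% and 37.1% in the libraries labelled T164A. At a mean of at least 9 the lower shares were 43.2% in wild type and 39.9% in the libraries labelled T164A, close to the count of 5 in 10. CDKN1A (p21), an inhibitor of cyclin-dependent kinases, fell by 0.60 (SE 0.08) in wild type and fell by 3.0002 (SE 0.08) in the libraries labelled T164A, and CDKN2B (p15) fell by 0.69 (SE 0.07) in wild type and fell by 3.39 (SE 0.08) in the libraries labelled T164A, with limma adjusted p from 1.01e-21 to 3.31e-07. CDKN2C (p18), an INK4 inhibitor like CDKN2B, rose by 1.49 (SE 0.08, limma adjusted p = 2.28e-15) in the libraries labelled T164A, and NDRG2 rose by 0.99 (SE 0.09) in wild type and by 1.02 (SE 0.10) there. ITGAL, counted among the rises in the libraries labelled T164A, had both group means below the floor.

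Of 13 SIN3 co-repressor genes, 3 rose and 4 fell in wild type, close to the 21% higher and 24.5% lower among all symbols, and none was called with sets averaged or under a minimum fold of 1.2. In the libraries labelled T164A 9 rose and 1 fell (3 fell under quantile normalization, 0 without T164A replicate 93), beside 37.1% higher and 27.2% lower among all symbols (44.3% and 39.9% at a mean of at least 9). The smallest p-values were those of RBBP4 (by 1.34, SE 0.05), HDAC2 (by 1.09, SE 0.05) and RBBP7 (by 0.96, SE 0.05), while the low-level SAP30 rose by 2.17 (SE 0.14, limma adjusted p = 4.09e-13). Of 10 partners of MGA in the variant Polycomb complex, 3 rose and 4 fell in wild type and 5 rose and 2 fell in the libraries labelled T164A. The shares over all symbols were 21% higher and 24.5% lower in wild type and 37.1% and 27.2% in the libraries labelled T164A, where at a mean of at least 9 they were 44.3% and 39.9%. In the libraries labelled T164A the ubiquitin ligase RNF2 rose by 1.94 (SE 0.09) and L3MBTL2 by 1.26 (SE 0.08) while MGA fell. With sets averaged, 0 rose and 1 fell in wild type. In the libraries labelled T164A, 1 fell with sets averaged or without any 1 of 9 libraries (vector replicates 4, 5 and 6, wild-type replicates 13, 16 and 17, T164A replicates 91, 92 and 93).

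Among 18 genes for MYC protein turnover and cofactors, 2 rose and 7 fell in wild type (1 and 2 with sets averaged), and 11 rose and 2 fell in the libraries labelled T164A. Over all symbols 21% were higher and 24.5% lower in wild type (24.1% and 43.2% at a mean of at least 9), and 37.1% and 27.2% in the libraries labelled T164A (44.3% and 39.9%). FBXW7, the ubiquitin ligase subunit that marks MYC for destruction, fell by 0.52 in wild type (SE 0.08, limma adjusted p = 6.61e-06) and by 1.79 in the libraries labelled T164A (SE 0.09, limma adjusted p = 1.89e-15). RUVBL1, an ATPase that MYC binds with TRRAP, rose by 0.81 (SE 0.07) in wild type and by 2.04 (SE 0.07) in the libraries labelled T164A, and its partner RUVBL2 rose by 1.76 (SE 0.08) in the libraries labelled T164A. AURKA, the kinase that stabilises MYCN protein, was lower in wild type than in the libraries labelled T164A, with a difference of -1.53 (SE 0.07, limma adjusted p = 6.11e-16). The 2 comparisons with the vector share its 6 libraries, so like changes in both are not independent of each other.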

How the data were processed

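Per the labels' protocols, TruSeq libraries were made from poly-A RNA and read on an Illumina HiSeq. In the submitters' processing notes stand the build GRCh37, TopHat2 2.0.4, Cufflinks 2.0.2, CASAVA 1.8.2 and DESeq, without roles. The authors deposited log2 values for 21594 rows. How they were transformed, and how strand and near-identical copies were counted, no source used here states, so values of genes with processed pseudogenes (NPM1, HSPE1, EIF4A1, LDHA) are uncertain. For each of 304 symbols on several rows the row with the highest mean was kept.

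Above 11.5, 2 raised to the value lies on whole steps (tolerance 0.05, offset 1.89) in 100% of cases, which gave depth and reads per library. Between 10 and 10.5 only 8.38% to 11.3% do, so no count test was run. A floor of 3 reads, extended from the steps above 11.5, is 2.30 on average and, like reads, covers counting error only.

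All 16 libraries entered 1 limma 3.58.1 model (R 4.3.3, variance trend, 13 residual degrees of freedom), with two-sided tests. P-values were adjusted by Benjamini and Hochberg's method across all 20166 symbols, and calls were made below 0.05. The fit was tested on simulated data with independent libraries, which does not cover libraries that form close sets. Sets of close libraries were joined through pairs with a chi-square per degree of freedom of 30 or less over 547 genes. A set can therefore hold pairs above that limit, as with wild-type replicates 13 and 18 (37.26) and 17 and 18 (35.72). Members and lists were chosen with earlier results of these data known. Beside all members, up to 3 genes per list and comparison with the smallest p, and the 4 closest profiles, were to be named. Other genes named (HK2, TFRC, HSPD1, ITGAL, SAP30) were chosen after their values were seen. The check of the gene that the constructs carry, and some genes that met the rule, are not reported here. Alternatives were quantile normalization, a mean of at least 3, no variance trend, array weights, fitting only the groups compared, a minimum fold of 1.2 and leaving out each library. After the data were seen, averaging of close sets and leaving out the 2 libraries that stand apart were added. RefSeq promoter windows are of GRCh38.p14, another build than the files'.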

Additional observations from a re-analysis of the deposited data

Results flagged for a closer look

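Of 30 sets of values (10 genes in 3 groups), 3 had a library far from the others of its group by Dixon's test, which flags about 1 in 20 sets by chance. All 3 concern the libraries that stand apart. MXD4 in wild-type replicate 14 was at 9.96, with the nearest other library at 10.30. MGA in the same library was at 11.80, with the nearest other at 11.54. MXD3 in T164A replicate 93 was at 8.97, with the nearest other at 9.28. Wild-type replicate 14 also had the lowest luminal sum of its group, at 15.71, against 16.39 to 16.77 in the others. The part of the luminal sum in its values was not tested.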

How the results depend on the processing

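Of 717 repeats of the 30 member comparisons, 648 kept their direction and side of the threshold, 38 lost a call, 7 gained one and 24 changed sign. Part of this tally was fixed in advance. A difference cannot change when a library of the group not compared is left out. Nor can it change under a minimum fold, without a variance trend or when only the groups compared are fitted. All sign changes were in comparisons without a call. They were MYCN in wild type against vector (-0.0464 under quantile normalization, -0.0674 with array weights, and -0.21 to 0.58 with a library left out), MYC in T164A against vector (-0.0276 with close libraries averaged), MXI1 in T164A against vector (-0.0683, quantile normalization), and in wild type against T164A, MAX (0.0918, quantile normalization), MXI1 (0.14, quantile normalization, adjusted p = 0.0418 by limma; 0.0228, array weights; 0.0304, both libraries that stand apart left out) and MLX (-0.0340, close libraries averaged). With a library left out, MYC in T164A against vector ran over -0.0351 to 0.0765, and in wild type against T164A, MXI1 over -0.0322 to 0.0285 and MLX over -0.0223 to 0.0449. The cause of these changes was not tested. In wild type against vector, 2 members were called under a minimum fold of 1.2 and 2 with close libraries averaged, against 7, and 4091 and 3821 of all genes, against 9183. In wild type against T164A, 4 members were called under a minimum fold of 1.2, against 7. Leaving out a library gave 7 to 8, 6 to 8 and 6 to 7 members, and 8660 to 9660, 12573 to 13056 and 12006 to 12487 genes, in the order wild type against vector, T164A against vector and wild type against T164A. Quantile normalization moved the share of higher calls: 3775 higher and 6136 lower in wild type against vector (4244 and 4939 otherwise), 6201 and 6940 in T164A against vector (7487 and 5490), and 6427 and 6074 in wild type against T164A (5387 and 7070). No paired analysis was possible because the groups share no replicate numbers. At this depth MYCN is near the limit of detection, while the other 9 members are far above it.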
